A study of Mus musculus with 7 samples.

Results

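The progesterone receptor gene Pgr and its downstream neighbor Gm16485 were examined in RNA-seq of granulosa cell-depleted mouse ovary, the tissue called ovarian stroma in the study. The rows were chosen by transcript identifier, and they cover 2 of the 52230 genes and 4 of the 137570 transcripts that could be matched to the annotation. The tissue came from immature females of the PRKO line, which carries the Pgrtm1Bwo allele. WT animals were labeled PGR +/+ and KO animals PGR -/-, so the disrupted allele was the labeled difference between the groups. In this allele a neomycin cassette interrupts the first exon of Pgr, and both receptor proteins are lost. All females received 5 IU eCG (also called PMSG), then 5 IU hCG 44 h later, and ovaries were taken 8 h post-hCG. The sample labels give an age of 21 to 27 days, while the series text gives 25 days as the upper age. Granulosa cells were removed by puncturing the follicles, and the remaining ovary was sequenced as a mixture of cells. There were 4 WT libraries (replicates 1 to 4) and 3 KO libraries (replicates 2 to 4), each made from 3 pooled mice.

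PGR is a nuclear receptor that binds progesterone and then acts as a transcription factor. In its unliganded state it is held by a chaperone complex built around HSP90, and it recruits coactivators or corepressors at its target genes. The gene encodes a long form, PGR-B, and a short form, PGR-A, which starts at a later start codon in the same first exon. The luteinizing hormone surge, mimicked here by hCG, induces Pgr in the granulosa cells of preovulatory follicles, and mice without PGR do not release oocytes.

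Pgr (ENSMUSG00000031870, protein coding) occupies 8899830 to 8968612 on the forward strand of chromosome 9 in GRCm39. Gm16485 (ENSMUSG00000078117) occupies 8971792 to 8975774 on the same strand, with 3179 bp between the end of Pgr and its start. Gm16485 has 1 exon of 3983 bases, and its annotated class is TEC, a label for loci still awaiting experimental proof. The annotation holds 5 Pgr transcripts. Pgr-201, Pgr-203 and Pgr-204 have rows in the tables, and Pgr-202 and Pgr-205 were not analysed here. Pgr-204 has 8 exons and ends in a long last exon of 3629 bases. Pgr-201 has 8 exons too, with a last exon of 443 bases. Pgr-203 is annotated as a retained intron transcript with 4 exons, and its exon 4 runs on into intron 4, so that it measures 1963 bases in place of 306. Pgr-205 lacks exon 3.

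**Figure D1:**
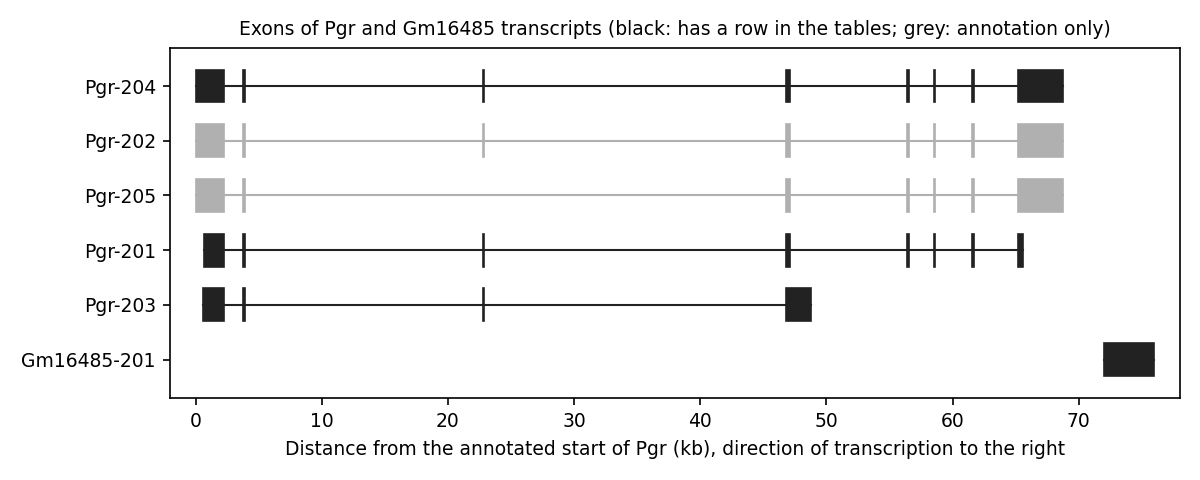
Exons (boxes) and introns (lines) of the annotated Pgr and Gm16485 transcripts, drawn to scale along the distance from the annotated Pgr start in kb. The 4 black transcripts have rows in the tables and the 2 grey ones do not. Gm16485-201 lies beyond the end of Pgr, and Pgr-203 ends inside intron 4.

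The following stretches show what the tables can and cannot separate. The annotated sequence of Pgr-202, whose coding region starts at the PGR-A codon, is identical to that of Pgr-204, whose coding region starts at the PGR-B codon. The start codons lie 495 bp, or 165 codons, apart within exon 1, and Pgr-202 has no row used here. Whether the Pgr-204 row, whose length in the tables is 6889 bases against 6893 in this annotation, also took the reads of Pgr-202 is not given in the sources used here. PGR-A and PGR-B cannot be told apart in these values. The start codons are in capitals in the first 2 stretches (chr9:8900469-8900528 and chr9:8900934-8900993, forward strand, GRCm39). In the third (chr9:8946922-8947011) the capitals mark the first bases of intron 4, which Pgr-203 keeps and Pgr-204 splices out. The last 2 are the opening and the closing bases of Gm16485 (chr9:8971792-8971851 and chr9:8975725-8975774), and capitals in the closing one mark the letters AATAAA of a polyadenylation signal.
PGR-B start: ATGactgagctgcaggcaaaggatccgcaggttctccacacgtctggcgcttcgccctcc
PGR-A start: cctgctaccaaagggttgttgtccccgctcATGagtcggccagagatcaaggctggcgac
exon 4 border: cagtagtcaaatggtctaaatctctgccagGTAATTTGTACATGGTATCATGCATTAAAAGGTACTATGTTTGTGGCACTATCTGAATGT
Gm16485 start: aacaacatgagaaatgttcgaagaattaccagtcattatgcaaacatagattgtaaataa
Gm16485 end: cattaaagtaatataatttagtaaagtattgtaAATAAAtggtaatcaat

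The letters AATAAA, searched on the transcribed strand, stand within the last 50 bases of Gm16485-201, beginning 17 bases from its end. Among all 3301 annotated TEC transcripts, 22.1% hold these letters in their last 50 bases, against 54.5% of 180325 protein-coding transcripts. Pgr-204 holds them 27 bases from its end. Pgr-201 and Pgr-203 have neither AATAAA nor ATTAAA there.

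How well the 4 rows can be told apart was read from their 31-base words, taken from GENCODE M39 and compared with the other 3 rows and with the transcripts of all other genes that have rows, leaving out Pgr-202 and Pgr-205. Of the 3944 words of Gm16485-201, 99.4% occurred in none of these, and none of the 3944 occurred in the Pgr rows. Pgr-204 had 3767 words of its own (54.9%), and Pgr-203 had 1655 (42.8%). Pgr-201 had none, because its whole sequence lies within that of Pgr-204. Gm16485 and Pgr therefore do not share reads through sequence likeness, whereas the division of reads among Pgr transcripts is an estimate by Salmon. All 3 quantified Pgr transcripts begin with exon 1, in full or in part. The rows give a single value per transcript and no position along it, so which exons the reads in KO came from was not analysed here.

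Total reads assigned to transcripts lay between 47372446 and 63416875 per library. The values are Salmon's estimated read numbers and TPM (transcripts per 1000000, a level per transcript length), and reads were also expressed as CPM, counts per 1000000 reads after TMM scaling. The effective length that Salmon used was shorter than the length listed beside it by 187.4 to 201.7 bases, by the same amount for all 4 transcripts within a library.

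Pgr was expressed in the WT stromal tissue and was lower, but not absent, in the KO tissue. Granulosa cell markers were also detected in these libraries, and the part of granulosa cell RNA in the Pgr reads was not tested. The WT libraries had 1014, 1560, 1210 and 1048 Pgr reads in replicates 1 to 4, and KO replicates 2, 3 and 4 had 353, 313 and 438. As CPM, these were 19.5, 31, 21.5 and 16.8 in WT and 6.13, 6.52 and 7.56 in KO. The lowest WT library stood above the highest KO library, and WT replicate 2 was the highest of all. WT averaged 22.2 ± 6.16 CPM (SD, n = 4), and KO averaged 6.74 ± 0.736 CPM (SD, n = 3). The log2 fold change was -1.72 (SE 0.202). The edgeR quasi-likelihood test gave a Benjamini-Hochberg adjusted p of 0.0544, and Pgr ranked 4 of 19233 genes by its p. This missed the threshold used for a differentially expressed gene (DEG), namely an adjusted p no higher than 0.05 together with a log2 fold change of 0.5 or more in either direction. edgeR called 0.0052% of all genes lower in KO. DESeq2, fitted to the same counts, called Pgr lower (adjusted p = 3.67e-15), and it called 0.509% of the 16885 genes with an adjusted p lower. Fewer cells that express Pgr and less Pgr RNA per cell cannot be told apart in these bulk libraries.

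Gm16485 had the same direction at a lower level. Its reads numbered 235, 326, 310 and 268 in WT replicates 1 to 4, and 81, 96 and 112 in KO replicates 2 to 4. As CPM, the WT libraries had 4.52, 6.48, 5.50 and 4.31 and the KO libraries 1.41, 2.0 and 1.93. The groups did not overlap here either, and WT replicate 2 was again the highest library. WT averaged 5.20 ± 0.998 CPM (SD, n = 4), and KO averaged 1.78 ± 0.325 CPM (SD, n = 3). The log2 fold change was -1.55 (SE 0.194), with an adjusted p of 0.0587 in edgeR and rank 8 of all genes. DESeq2 called it lower (adjusted p = 7.05e-11). For both genes the highest KO library was below the lowest WT one, as it was for 5.12% of the 19233 genes. In both, the exact two-sided permutation test gave p = 0.0286 for the difference in mean CPM, the smallest value that 4 against 3 libraries allow.

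**Figure D2:**
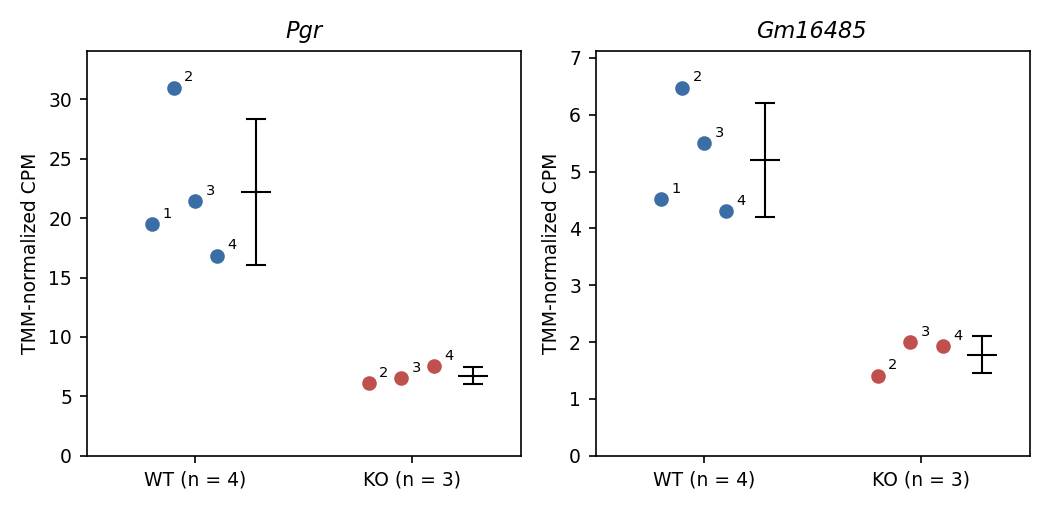
TMM-normalized CPM of Pgr (left) and Gm16485 (right) in each library, with points numbered by replicate and bars giving the mean ± SD of 4 WT and 3 KO libraries. For Pgr the WT points lie between 16.8 and 31 and the KO points between 6.13 and 7.56, and for Gm16485 the WT points lie between 4.31 and 6.48 and the KO points between 1.41 and 2.0.

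What remained in KO was about the same share of WT for both genes. KO Pgr amounted to 30.3% of the WT mean by CPM and 32.3% by TPM, and over the 12 pairings of a KO with a WT library the CPM share ranged from 19.8% to 44.9%. Without WT replicate 2 the mean share of Pgr was 35%. KO Gm16485 amounted to 34.2% of WT by CPM and 35.2% by TPM, with a range of 21.7% to 46.4% over the pairings.

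Both genes stood in the lower part of the expressed genes. In TPM, Pgr measured 4.34, 8.04, 5.43 and 4.22 in WT and 1.54, 1.62 and 2.19 in KO. Its WT mean of 5.51 ± 1.77 TPM (SD, n = 4) was above that of 43.0% of the 19233 genes, whose median was 8.73 TPM. Its KO mean of 1.78 ± 0.352 (SD, n = 3) was above that of 29.4% of them. Gm16485 measured 1.62, 2.58, 2.16 and 1.70 TPM in WT and 0.539, 0.781 and 0.807 in KO. Its WT mean of 2.01 ± 0.447 TPM exceeded that of 31.3% of the genes and its KO mean of 0.709 ± 0.148 that of 19.5%. In WT the lowest Pgr level, 4.22 TPM, was above the highest Gm16485 level, and the same held in KO.

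Among the Pgr transcripts, Pgr-204, the full-length message, carried most of the reads. It had 884, 1267, 1006 and 889 reads in WT and 285, 265 and 340 in KO, with no overlap between the groups, as in 3.2% of transcripts for KO below WT. Its log2 fold change was -1.77 (SE 0.195), with an adjusted p of 0.12 over 55145 transcripts in edgeR and of 2.55e-14 in DESeq2. KO amounted to 29.3% of WT by CPM. edgeR called 0.00544% of transcripts lower in KO and DESeq2 called 0.261%.

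Pgr-203, the intron-retaining form, had 130.3, 292.5, 203.8 and 158.2 reads in WT and 68.3, 48.0 and 62.8 in KO. Its groups did not overlap, and WT replicate 2 again stood highest. The log2 fold change was -1.73 (SE 0.331), with an adjusted p of 0.541 in edgeR and 0.000891 in DESeq2. KO amounted to 30.1% of WT by CPM. Pgr-203 and Pgr-204 were thus lower in KO by similar amounts, in a fit whose spread between replicates was larger for transcripts (common biological coefficient of variation 0.421) than for genes (0.127).

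Pgr-201, the short form with no sequence of its own, was listed at 0 in 6 libraries and at 35.4 reads in KO replicate 4. It did not pass the filter on low counts, so 3 of the 4 transcripts were tested. In KO replicate 4 its reads made up 8.08% of the Pgr reads (Wilson 95% interval 5.80% to 10.9%, from reads rounded to whole numbers). Taking 3 reads as the limit that a count of 0 allows, the share could be up to 0.192% to 0.296% in the WT libraries and up to 0.85% and 0.958% in KO replicates 2 and 3. The upper Wilson bounds for the same libraries were 0.246% to 0.377% in WT and 1.08% and 1.21% in KO. Intervals and limits cover counting error only and leave out the error in how Salmon divides reads among overlapping transcripts.

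The division of Pgr reads between its transcripts did not differ detectably between genotypes. Pgr-204 took 87.2%, 81.2%, 83.2% and 84.9% of the Pgr reads in WT and 80.7%, 84.7% and 77.6% in KO. The groups overlapped, with means of 84.1% ± 2.51 (SD, n = 4) and 81.0% ± 3.55 (SD, n = 3) and an exact permutation p of 0.2 (0.6 after Benjamini-Hochberg adjustment over 3 transcripts). Pgr-203 took 12.8%, 18.7%, 16.8% and 15.1% in WT and 19.3%, 15.3% and 14.3% in KO, with means of 15.9% ± 2.51 and 16.3% ± 2.64 (exact permutation p = 0.83 before and after adjustment). At this depth a single share of Pgr-203 had a Wilson 95% interval of 10.9% to 15.0% in WT replicate 1 and of 15.5% to 23.7% in KO replicate 2. The edgeR test of transcript usage gave an adjusted p of 1 for Pgr, where 0.514% of 11289 genes were called. Without the filter on low counts, which brings in Pgr-201, it gave an adjusted p of 0.276. In simulated data with own dispersions the usage test recovered 16.5% of changes made at a log2 size of 1. The lack of a call therefore does not show that usage was unchanged.

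**Figure D3:**
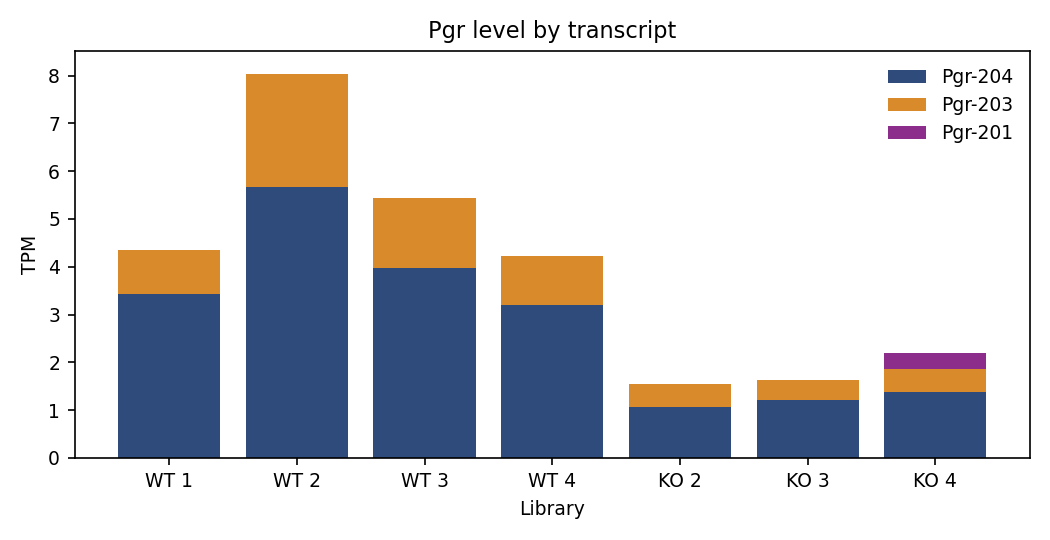
Pgr level in TPM in each library, stacked by transcript. Pgr-204 forms the larger part in all 7 libraries and Pgr-203 most of the rest, and Pgr-201 appears in KO replicate 4 alone, at 0.336 TPM.

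The level of Gm16485 relative to Pgr did not separate the genotypes. The ratio of Gm16485 to Pgr TPM was 0.372, 0.321, 0.399 and 0.403 in WT and 0.351, 0.482 and 0.369 in KO. The ranges overlapped, with KO replicate 3 highest and WT replicate 2 lowest. The means were 0.374 ± 0.0377 (SD, n = 4) and 0.401 ± 0.0712 (SD, n = 3), and the log2 ratio was higher by 0.093 in KO (two-sided exact permutation p = 0.571). With reads in place of TPM the ratio was 0.238 ± 0.0225 in WT and 0.264 ± 0.0393 in KO, and the log2 difference of 0.142 gave an exact permutation p of 0.457. Within WT, replicate 2 was highest and replicate 3 next for both genes, in CPM and in TPM. Within KO, replicate 2 was lowest for both genes on both scales, and replicates 3 and 4 changed places for Gm16485 between the scales.

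**Figure D4:**
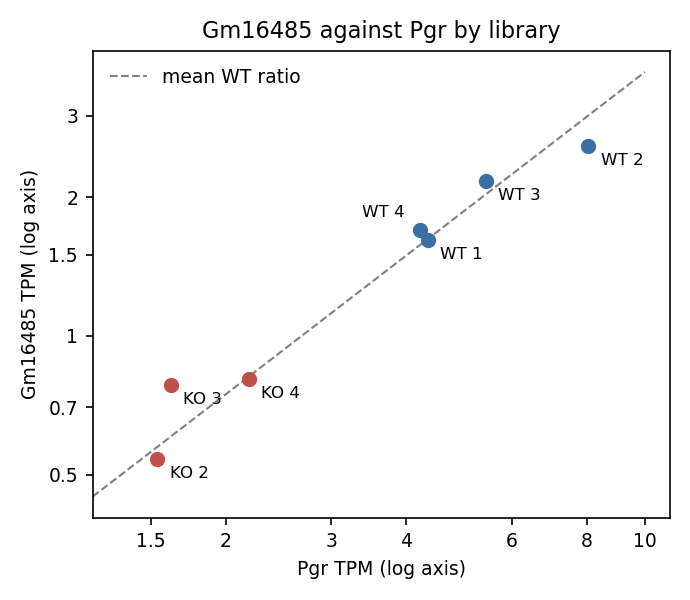
Gm16485 TPM against Pgr TPM in each library, both axes logarithmic, with WT in blue and KO in red. The dashed line has the mean WT ratio of 0.374, and the KO libraries lie along its lower end, with KO replicate 3 above it at a ratio of 0.482.

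Likeness of pattern was described by Pearson r of log2 CPM over the 7 libraries, among 19232 genes compared with each of the pair. These points share their genotype, and the WT and KO points of Pgr and Gm16485 do not overlap, so r largely reflects the difference between groups. Gm16485 was the third closest to Pgr (r = 0.986), after Gm20547 (0.988) and Igdcc3 (0.987), a cell-surface protein of the immunoglobulin superfamily. Pttg1ip (0.982) and Spink8 (0.971), a Kazal-type serine peptidase inhibitor, followed. Gm20547 was listed at 0 in all 3 KO libraries and lay between 0.129 and 0.894 CPM in WT. Spink8 was also low, at 0.209 to 0.517 CPM in WT and 0.0174 to 0.0625 in KO. Igdcc3 had a log2 fold change of -0.53 (SE 0.128, edgeR adjusted p = 0.27).

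Pgr was the second closest gene to Gm16485. Pgap2, which takes part in GPI-anchor maturation, was first (r = 0.987), and Gpt2, the mitochondrial alanine aminotransferase (0.984), Spink8 (0.976) and B4galt6 (0.975), a galactosyltransferase of glycolipid synthesis, followed. Gpt2 had 102, 138, 109 and 117 CPM in WT and 37.7, 53.5 and 55.3 in KO, and its log2 fold change was -1.26 (SE 0.149, edgeR adjusted p = 0.0544). When log2(TPM + 0.1) was used, the r of the pair was 0.982, and Lhx6, a LIM homeobox factor, was the closest gene to Pgr (0.994).

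The pair was then set beside other TEC genes in the same position, a description chosen after these values were seen. Of 815 tested TEC genes, 91 lie within 10 kb downstream of a tested coding gene on the same strand. The median r of these 91 pairs over the 7 libraries was 0.171, with quartiles of -0.226 and 0.579. The r of Gm16485 with Pgr was the highest of the 91, and 3 pairs were above 0.9. Pgr is the disrupted gene (log2 fold change -1.72), and r was taken over both genotypes. This rank therefore largely reflects the difference between groups. Among the other upstream genes the largest change in either direction was 0.91, for Cd28. The r within a genotype was not tested. The WT level of Gm16485 relative to Pgr, 0.366 as a ratio of mean TPM, ranked 14 of 91, where the median ratio was 0.0338.

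**Figure D5:**
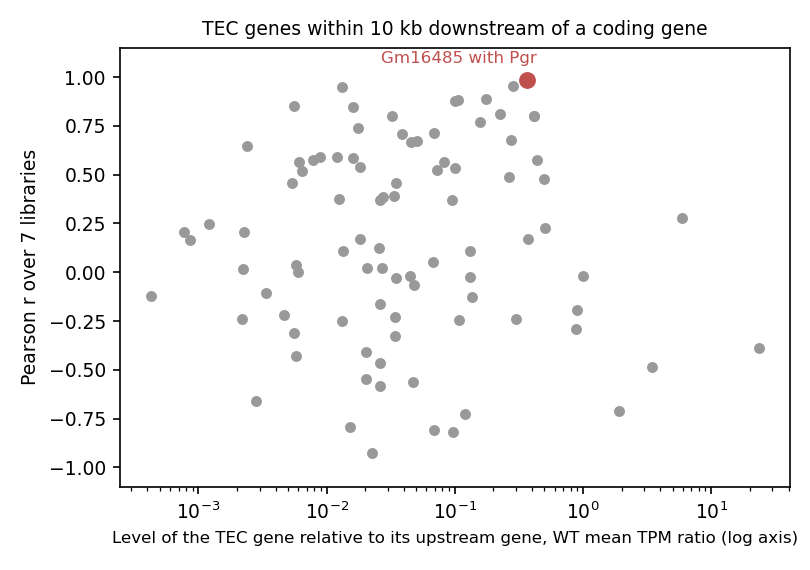
Each point is a TEC gene with the coding gene upstream of it, with the ratio of their WT mean TPM on a logarithmic axis and their Pearson r over 7 libraries. Gm16485 with Pgr, in red, has the highest r (0.986) of the 91 pairs and a ratio of 0.366 against a median of 0.0338. Pgr is the disrupted gene, and r is taken over both genotypes.

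The nearest tested genes on either side did not show the pattern of the pair. Trpc6, a cation channel gene on the same strand, ends 217 kb before Pgr. It had 12.6, 13.2, 12.1 and 11.9 CPM in WT and 16.1, 16.2 and 20.5 in KO, so that every KO library was above every WT library, as for 3.93% of all genes. Its log2 fold change was 0.50 (SE 0.0972, edgeR adjusted p = 0.186). Arhgap42, a protein-coding gene on the reverse strand, lies 16.7 kb beyond Gm16485. WT averaged 84.3 ± 5.64 CPM (SD, n = 4), and KO averaged 90.5 ± 1.08 CPM (SD, n = 3), with overlapping libraries and a log2 fold change of 0.10 (SE 0.0616, adjusted p = 0.671).

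The genes around PGR function were read from 5 lists of genes with known roles. edgeR called none of their genes, and with an unadjusted p under 0.05 it gave 5.1% of all genes lower and 3.84% higher in KO. DESeq2, which called 0.509% of genes lower and 0.326% higher, called 5 genes of the last list and 0 of the other 4. The median log2 fold change of all genes was -0.001. Among the 14 chaperones and immunophilins that hold the unliganded receptor, 3 had such a p, all higher in KO, and the median log2 fold change was 0.03. They were Hspa8, the constitutive HSP70 (log2 fold change 0.41, SE 0.0801, adjusted p = 0.19), its cochaperone Dnajb1 (0.73) and Hsp90aa1, an HSP90 form (0.28). DESeq2 gave Hspa8 an adjusted p of 5.8e-05 but its fold change was under the DEG threshold, and it called none of the 14.

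Of the 16 coactivators and corepressors, 0 had an unadjusted p under 0.05 in edgeR or in DESeq2, and the median log2 fold change was 0.02. Among those with the smallest p were Arid1a, a chromatin remodeler subunit (log2 fold change 0.12), and Crebbp, a histone acetyltransferase (0.10). Of the 20 genes of luteinizing hormone signaling and of factors that act on Pgr transcription, 1 was lower and 2 were higher at that p. The AP-1 subunit genes Jun (0.44, adjusted p = 0.363) and Fos (0.41, adjusted p = 0.399) were higher and the GATA factor Gata2 (-0.23, adjusted p = 0.534) was lower in edgeR. Of the 9 genes that make or remove progesterone, 1 was lower at that p. This was Star, which moves cholesterol into mitochondria, with 1310 ± 427 CPM in WT and 916 ± 63.2 in KO (log2 fold change -0.51, edgeR adjusted p = 0.529).

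Of the 18 ovarian genes known to depend on PGR at ovulation, 10 had an unadjusted p under 0.05, all lower in KO, and the median log2 fold change was -0.29. In all, 16 had a negative and 2 a positive fold change. This list was written with results of these libraries known and is no independent evidence of its direction. Zbtb16, a zinc finger repressor, measured 19.2 ± 5.98 CPM in WT and 7.04 ± 1.39 in KO, a log2 fold change of -1.45 (SE 0.25, edgeR adjusted p = 0.16). Cxcr4, a chemokine receptor, had -0.97 (SE 0.21, adjusted p = 0.236), and Snap25, a component of the exocytosis machinery, had -1.04 (SE 0.273, adjusted p = 0.314). DESeq2 called 5 of the 18 lower, these 3 with Pparg and Pdlim4, the last 2 named after their values were seen.

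The labeled tissue was checked with lists of cell type markers. Markers of stromal fibroblasts (summed level 3040 to 4130 TPM in WT, 3210 to 3560 in KO), theca cells (3870 to 4780 against 2960 to 3890) and endothelial cells (352 to 389 against 344 to 374) were all expressed. Of the 9 fibroblast markers, 7 had negative fold changes, 1 of them with an unadjusted p under 0.05 in edgeR. Of the 7 endothelial markers, 6 had negative fold changes, 2 of them at that p. Markers of granulosa cells, the cells that the puncturing was meant to remove, summed to 2400 to 3350 TPM in WT and 3040 to 4040 in KO. All 10 were detected, including Fshr and Cyp19a1. At an unadjusted p of 0.05, edgeR picked 0 of the 10, and 5 had a negative fold change. DESeq2 called none of them either. The part of granulosa cell RNA in the level of Pgr was not tested. All 7 smooth muscle and pericyte markers had negative fold changes, 5 of them with an unadjusted p under 0.05, and their sum was 1680 to 2020 TPM in WT and 1200 to 1640 in KO, without overlap. DESeq2 called 2 of them lower, Des and Cnn1, which were named after their values were seen. All 8 theca markers had negative fold changes and all 7 oocyte markers positive ones, with sums of 205 to 292 TPM in WT and 265 to 366 in KO for oocytes. In edgeR 1 of these theca markers and 3 of these oocyte markers had an unadjusted p under 0.05. The part of these cell types in the values of Pgr and Gm16485 was not tested. Markers of leukocytes summed to 34.0 to 42.2 TPM over all libraries and those of the ovarian surface epithelium to 34.1 to 61.2, both with overlapping groups. Of the 7 surface epithelium markers, 6 had negative fold changes, with a median log2 fold change of -0.44, and 1 had an unadjusted p under 0.05 in edgeR. Markers of oviduct and uterus summed to 2.35 to 4.00 TPM, and 2 of these 6 genes did not pass the filter.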

How the data were processed

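RNA-seq of ovarian stroma was read from 7 libraries, 4 WT and 3 KO, grouped by the sample labels. The authors deposited Salmon's expected counts (estimated read numbers per transcript) made from stranded, paired-end 100 bp reads and the GENCODE M26 transcriptome on GRCm39. The version of Salmon is not given in the sources used here. TPM (read numbers per effective length, scaled within a library) and the effective lengths were deposited beside them. Coordinates come from GENCODE M39 on GRCm39, a later release, in which Pgr-204 has 6893 bases in place of the 6889 in the tables. By Ensembl identifier 137570 of 139225 transcripts were matched, with 99.4% of the reads in every library.

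Expected counts were summed per gene and rounded. KO was compared with WT in edgeR 4.0.16 (R 4.3.3; TMM, filterByExpr, glmQLFit, two-sided glmQLFTest), and p-values were adjusted by Benjamini-Hochberg across 19233 genes or 55145 transcripts, and transcript usage with diffSpliceDGE. The SE of a log2 fold change was its size over the root of the F statistic. The study's own test, DESeq2 1.42.0, and limma-voom (limma 3.58.1) were alternatives, with median-of-ratios size factors, no filter, length offsets, a replicate block and leaving out each library. Single values were compared by exact permutation over 35 splits, and the Wilson intervals came from scipy 1.17.1. The code was tested on simulated data. There the transcript test missed most of the changes made at the sizes seen for Pgr. The usage test recovered 16.5% of changes made at a log2 size of 1 where transcripts had their own dispersions. With a single dispersion trend it recovered 9.5%. It also made many false calls where transcripts had their own dispersions, so its p for Pgr is printed beside the exact test of shares.

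The members and lists were chosen with earlier results of these data known. The rule named both genes and their transcripts, of each list the genes called or else the 3 with the smallest p, the 5 genes most like each member, and the nearest tested gene on each side. One gene that the rule named is not reported here. Each library is a pool of different mice. Counts of no pair of libraries of the same genotype agreed within sampling noise.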

Additional observations from a re-analysis of the deposited data

How the results depend on the processing

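The log2 fold changes of Pgr, Gm16485 and the 3 tested transcripts were negative under every alternative run. Both genes were called with DESeq2 (Pgr -1.72, Gm16485 -1.55) and without a filter on low counts (Pgr -1.71, adjusted p = 0.00128; Gm16485 -1.54, adjusted p = 0.00619), and under no other alternative on all 7 libraries. Leaving out single libraries gave -1.82 to -1.52 for Pgr. It was called without WT replicate 2 (adjusted p = 0.0238) and without WT replicate 4 (adjusted p = 0.0417). For Gm16485 the range was -1.63 to -1.40, with no call. DESeq2 called the transcripts Gm16485-201 (-1.56), Pgr-203 (-1.74) and Pgr-204 (-1.78), and no other alternative did. The cause of the differing calls was not tested.

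The share of Pgr left in KO was 28.1% to 35% with single libraries left out. The small share difference of Pgr-203 turned from 0.456 to -0.0353 percentage points with TPM shares and ranged from -1.04 to 1.45 with libraries left out. That of Pgr-201 ranged from 0 to 4.04 points, being 0 without KO replicate 4. The difference between KO and WT in the log2 ratio of Gm16485 to Pgr ranged from -0.048, without KO replicate 3, to 0.182. The r of the pair was 0.982 on the log2(TPM + 0.1) scale. Of the PGR-dependent list, DESeq2 called 5 genes and edgeR without a filter called 1. The number of Pgr reads in KO, 313 to 438, limits the precision of transcript shares.

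Deviations of same-numbered WT and KO libraries from their group means correlated at -0.013, 0.106 and 0.0846. Those of differently numbered libraries lay between -0.131 and 0.0975. With 4 WT and 3 KO libraries, these values cannot decide whether the replicate numbers pair the libraries. With the replicate block, the log2 fold changes were -1.74 for Pgr (adjusted p = 0.0734), -1.60 for Gm16485 (0.0895), -1.62 for Gm16485-201, -1.81 for Pgr-203 and -1.79 for Pgr-204 (adjusted p = 0.886 each), and the usage p was 0.966. The block changed no call.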
